A study of Mus musculus with 12 samples.

Results

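YAP/TAZ-TEAD genes were examined in Pdgfra+ cells sorted from mouse lung. The 10 genes were taken by symbol from the 40760 genes of the count table and comprised the coactivators Yap1 and Wwtr1 (which encodes TAZ), the DNA-binding factors Tead1, Tead2, Tead3 and Tead4, and Ankrd1, Amotl2, Lats2 and Axl, which are widely used as readouts of these factors. All 10 passed the filter on low counts, which kept 17418 genes. Bulk RNA-seq comprised 12 libraries, 3 for each pairing of a genotype (WT or Pear1-/-) with a treatment (vehicle or bleo). All groups were labelled as Cd140a+ (Pdgfra) lung mesenchymal cells of male mice on a C57BL/6 background. The age range given in the methods for mice of the study in general is that of young adults, and the labels give no age, dose or number of mice per library. Bleo (bleomycin), a drug that damages DNA and is used to induce lung fibrosis, was given into the airway as an aerosol. The Pear1-/- allele is a whole-body knockout-first allele, in which a cassette with a splice acceptor was inserted into an intron to trap the transcript, so that Pear1 was targeted in every cell type and not in Pdgfra+ cells alone.

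YAP and TAZ are coactivators without a DNA-binding domain of their own. When the Hippo kinase cascade is active, the LATS kinases phosphorylate them and they are kept in the cytoplasm or degraded. When it is not, they enter the nucleus, bind TEAD factors and activate genes of adhesion, growth and matrix. In lung fibroblasts the pathway is known as a sensor of stiffness and spreading. Some of its targets, such as Lats2 and Amotl2, feed back to restrain it. mRNA levels do not report the phosphorylation or the location of YAP and TAZ. In GENCODE M21 (GRCm38) the coactivators lie with Yap1 at chr9:7931999-8004596 and Wwtr1 at chr3:57455649-57575910. The TEAD genes lie with Tead1 at chr7:112679318-112906807, Tead2 at chr7:45215753-45233644, Tead3 at chr17:28331671-28350817 and Tead4 at chr6:128224288-128300823, and the targets with Ankrd1 at chr19:36111961-36120099, Amotl2 at chr9:102716672-102733418, Lats2 at chr14:57689662-57758388 and Axl at chr7:25757273-25788705. Tead1, Tead2 and Amotl2 are on the plus strand and the other 7 on the minus strand.

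Libraries held between 6702948 and 10447101 counted reads. WT vehicle replicate 2 stood apart from its own group. Chi-square divided by its degrees of freedom, which would be 1 if libraries differed by counting noise only, was 21.2 and 21.8 against the other WT vehicle libraries but between 1.73 and 2.67 against the Pear1-/- vehicle libraries. Pear1-/- vehicle replicate 3 stood apart to a lesser degree, at 4.31 and 4.82 against its group, and the remaining pairs within groups gave 1.35 to 1.58. Pear1 itself was not called lower in the libraries labelled Pear1-/-, in which vehicle gave 519.7 ± 24.0 normalized counts against 547 ± 28.8 for WT vehicle (mean ± SD, n = 3), a log2 fold change of -0.08 (edgeR adjusted p = 0.470). It had 254 ± 14.0 in WT bleo and 357 ± 14.2 in the bleo libraries labelled Pear1-/-, which was higher and so against the label (log2 fold change 0.48, edgeR adjusted p = 0.000120). Whether these reads lay before or after the cassette cannot be read from counts per gene, and genotypes are given as labelled. Pdgfra, the marker of the sort, was read in every library but moved with the groups, from 1338 to 1394 normalized counts in WT bleo to 4195 to 4802 in WT vehicle, with log2 fold changes of -1.74 in WT, -0.80 in Pear1-/- and 0.80 in Pear1-/- bleo over WT bleo (edgeR adjusted p = 8.51e-12, 7.35e-08 and 1.47e-07). Ptprc, the leukocyte antigen CD45, was also read in every library and moved the other way in WT (1.22, edgeR adjusted p = 9.87e-09) and between the bleo groups (-1.19, edgeR adjusted p = 3.71e-08). The part of either in the results was not tested. Nothing states that libraries of a group came from separate mice, so that the p-values measure the spread between libraries, which may be technical. In bulk samples, fewer cells of a type and less RNA per cell cannot be told apart.

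The promoters of these genes were read for the core of the sequence that TEAD factors bind. In WT bleo against WT vehicle, Yap1, Wwtr1, Tead3, Tead4, Ankrd1, Amotl2 and Lats2 were lower and Axl was higher. RefSeq windows (GRCm38.p6) of 250 bases before and 50 after a transcript start were matched for 8 of the 10 genes, with 12 windows in all. No window was matched for Tead1 and Tead4. The motif searched was GGAATG, with its reverse complement CATTCC. At least 1 match was present in a window of 7 of the 8 genes, and not in that of Tead2. Of all 27025 genes with a window, 16.6% had a match, and so did 14.7% of the 32817 windows. Matches before the start were found in 8 of the 12 windows, beside 12.6% of all windows, and both windows of Wwtr1 hold the same site. By gene these were 6 of the 8, a count for which no share of all genes was taken. The match of Lats2 lay after its start, at position 5. The sites are shown 5′ to 3′ on the strand of the gene, with 12 bases on either side of the match in capitals. Of the 3 matches in the second window of Tead3, the first is in capitals, the next stands in lower case in the same line, and the one after the start is not shown.
Yap1 (chr9:8004720-8004749, minus strand): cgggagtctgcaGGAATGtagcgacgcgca
Wwtr1 (chr3:57576029-57576058, minus strand): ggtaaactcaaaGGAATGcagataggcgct
Tead3, first window (chr17:28350970-28350999, minus strand): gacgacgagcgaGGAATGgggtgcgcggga
Tead3, second window (chr17:28350706-28350735, minus strand): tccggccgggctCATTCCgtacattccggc
Ankrd1, distal site (chr19:36120037-36120066, minus strand): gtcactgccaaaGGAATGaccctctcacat
Ankrd1, proximal site (chr19:36119950-36119979, minus strand): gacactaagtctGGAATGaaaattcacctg
Amotl2 (chr9:102717727-102717756, plus strand): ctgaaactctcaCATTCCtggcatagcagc
Lats2 (chr14:57746102-57746131, minus strand): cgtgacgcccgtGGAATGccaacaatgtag
Axl (chr7:25788949-25788978, minus strand): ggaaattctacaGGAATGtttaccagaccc

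The first base of the motif lay at -141 in Yap1, at -136 in Wwtr1 counted from 1 annotated start and at -170 from the other, at -182 in the first window of Tead3, at -210 and -123 in Ankrd1, at -65 in Amotl2 and at -233 in Axl. Ankrd1 had 2 matches before its start in 1 window and Tead3 had 3 matches in its second window, at -123, -114 and 3, whereas 1.36% of all windows had 2 or more. The sites of Yap1, Wwtr1, Axl and the first of Tead3 lay outside annotated exons (GENCODE M21), whereas those of Ankrd1, Amotl2 and the second window of Tead3 lay within exons that GENCODE gives to the same genes, and that of Lats2 did in part. A match describes these letters and is not evidence of binding. The whole 250 bases before the start are shown for Wwtr1, which was lower in WT bleo than in WT vehicle, and for Axl, which was higher, since neither stretch overlaps an annotated exon.
Wwtr1 (chr3:57575911-57576160, minus strand): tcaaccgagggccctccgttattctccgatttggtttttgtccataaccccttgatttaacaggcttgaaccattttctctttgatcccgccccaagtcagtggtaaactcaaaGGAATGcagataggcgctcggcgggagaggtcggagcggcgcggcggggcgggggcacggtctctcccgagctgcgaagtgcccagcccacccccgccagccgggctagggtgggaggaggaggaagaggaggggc
Axl (chr7:25788734-25788983, minus strand): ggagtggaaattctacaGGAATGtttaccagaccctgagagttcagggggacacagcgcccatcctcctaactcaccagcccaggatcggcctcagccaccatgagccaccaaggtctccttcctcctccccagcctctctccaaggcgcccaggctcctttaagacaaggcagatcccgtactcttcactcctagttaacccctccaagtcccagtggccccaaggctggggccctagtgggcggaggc

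**Figure D1:**
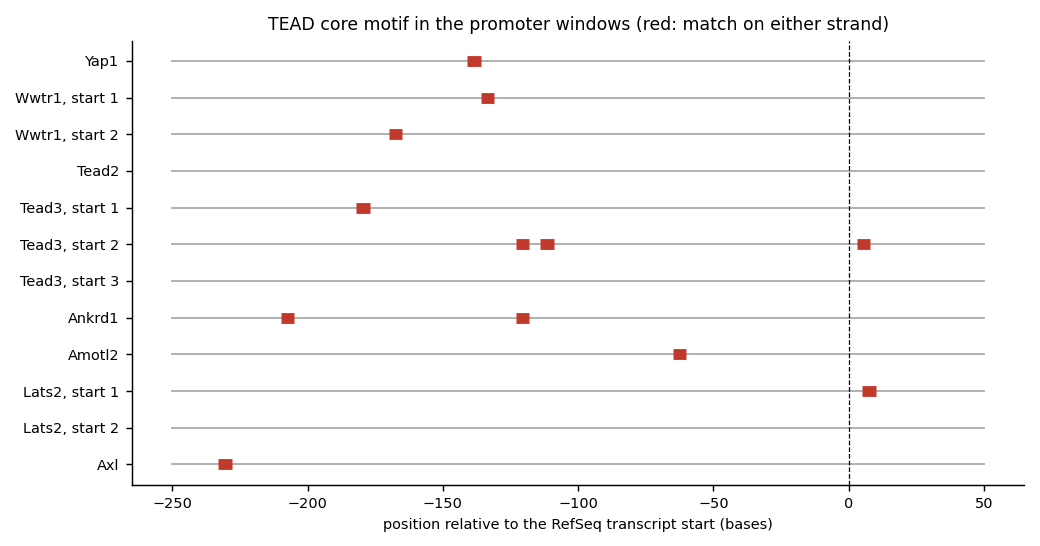
Positions of the TEAD core motif in 12 promoter windows of 8 genes, in bases relative to the RefSeq transcript start (dashed line). Each grey line is a window of 250 bases before to 50 after the start and each red block is a match on either strand; 9 of the 12 windows hold a match.

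Bleo was compared with vehicle in each genotype, the genotypes were compared within each treatment, and the bleo response was compared between the genotypes. In WT bleo, 7 of the 10 genes were lower than in WT vehicle and 1 was higher, at a Benjamini-Hochberg adjusted p under 0.05 over all genes tested (edgeR). Of all genes, 36.6% were called lower and 31.4% higher in that comparison. In Pear1-/- bleo, 4 genes were higher than in Pear1-/- vehicle and 2 were lower, beside 28.9% and 33.4% of all genes. Pear1-/- bleo exceeded WT bleo in 7 genes and was below it in 1, beside 22.1% and 23.9% of all genes. The bleo response differed between the genotypes in 8 genes, 7 of them with a higher response in Pear1-/- and 1 with a lower one, beside 17.9% and 19.1% of all genes. Between the vehicle groups no gene passed, beside 0.855% of all genes higher and 3.65% lower. The median log2 fold change of the 10 genes was -0.57 in WT, 0.19 in Pear1-/-, 0.68 between Pear1-/- bleo and WT bleo and 0.01 between the vehicle groups, whereas that of all genes lay between -0.07 and -0.0039 in these comparisons. The comparisons share libraries (WT bleo enters 3 of the 5, for example) and are not independent of each other. With a fold change above 2 required as well, 3 genes were lower in WT bleo (Tead4, Ankrd1 and Amotl2) and 0 higher, beside 23.5% and 10.5% of all genes. Tead4 alone was then higher in Pear1-/- bleo than in Pear1-/- vehicle and 0 genes were lower, beside 8.38% and 19.4%. Above WT bleo were Tead3, Tead4, Ankrd1 and Amotl2 in Pear1-/- bleo and 0 genes were below it, beside 6.26% and 8.76%, and the same 4 had a higher response in Pear1-/-, with 0 lower, beside 8.61% and 7.06%. Between the vehicle groups the stricter rule also called 0 genes, beside 0.0344% higher and 2.33% lower. Groups did not overlap in 9 of the 10 genes for WT bleo against WT vehicle, 6 for Pear1-/- bleo against Pear1-/- vehicle and 10 for the bleo groups, beside 68.7%, 70.9% and 62.9% of all genes.

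**Figure D2:**
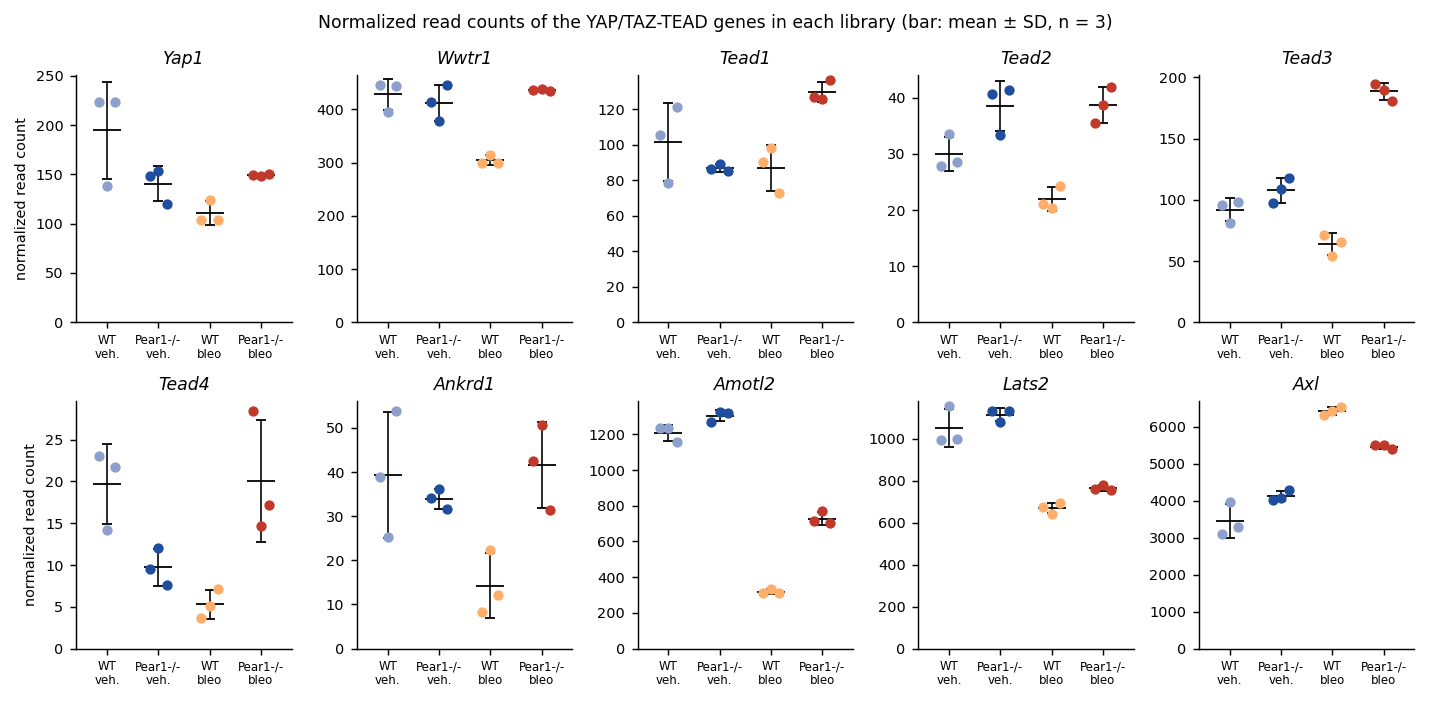
Normalized read counts (raw counts over the deposited table's size factor) of the 10 genes in each of the 12 libraries, by group. Points are libraries, the long bar is the mean and the whiskers are the SD (n = 3), and each axis starts at 0; Amotl2 was lowest in WT bleo, with 311 to 334 counts, and Axl was highest there, with 6325 to 6519.8.

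Of the coactivators, Yap1 had 223, 138 and 223 normalized counts in the WT vehicle libraries, 149, 153 and 120.0 in Pear1-/- vehicle, 104, 124 and 103 in WT bleo, and 149, 148 and 151 in Pear1-/- bleo. WT bleo lay below WT vehicle without overlap, while the Pear1-/- libraries overlapped between treatments and WT vehicle replicate 2 fell within the range of Pear1-/- vehicle. Yap1 was 1.74-fold lower in WT bleo than in WT vehicle (log2 fold change -0.80, SE 0.17, edgeR adjusted p = 0.000572). In Pear1-/- cells the difference was 0.09 (95% confidence interval -0.26 to 0.43, edgeR adjusted p = 0.664). The responses differed by 0.89 on the log2 scale (SE 0.23, edgeR adjusted p = 0.00781). All 3 Pear1-/- bleo libraries were above all 3 WT bleo libraries, with a log2 fold change of 0.42 that narrowly missed the threshold (95% confidence interval 0.07 to 0.78, edgeR adjusted p = 0.0504). It passed in 9 of 18 alternative settings.

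Wwtr1, the paralogue of Yap1, had 446, 395 and 444 normalized counts in WT vehicle, 414, 378 and 445 in Pear1-/- vehicle, 299, 315 and 299 in WT bleo, and 437, 439 and 436 in Pear1-/- bleo. The 3 WT bleo libraries were the lowest of all 12, and the other 3 groups overlapped. Wwtr1 was 1.40-fold lower in WT bleo than in WT vehicle (log2 fold change -0.48, SE 0.081, edgeR adjusted p = 9.10e-05) and 1.42-fold higher in Pear1-/- bleo than in WT bleo (edgeR adjusted p = 9.21e-05). In Pear1-/- cells bleo and vehicle differed by 0.09 (95% confidence interval -0.08 to 0.26), and the responses of the genotypes differed by 0.57 (SE 0.11, edgeR adjusted p = 0.00111).

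The TEAD factors bring the coactivators to DNA and share a DNA-binding domain. Tead3 had 95.8, 81.2 and 98.5 normalized counts in WT vehicle, 97.5, 109 and 118 in Pear1-/- vehicle, 71.6, 54.0 and 65.8 in WT bleo, and 194, 190.0 and 181 in Pear1-/- bleo. Bleo went with opposite directions in the genotypes, and all 4 groups but those given vehicle were separated from each other. Tead3 was 1.42-fold lower in WT bleo than in WT vehicle (log2 fold change -0.50, edgeR adjusted p = 0.00526), a call that was lost without the filter on low counts (edgeR adjusted p = 0.0614). It was 1.75-fold higher in Pear1-/- bleo than in Pear1-/- vehicle (log2 fold change 0.81, edgeR adjusted p = 3.40e-05). Pear1-/- bleo exceeded WT bleo 2.92-fold (log2 fold change 1.54, SE 0.13, edgeR adjusted p = 1.49e-07), and the responses differed by 1.32 on the log2 scale (SE 0.19, edgeR adjusted p = 6.73e-05).

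Tead4 had the fewest reads of the 10 genes and rested on 4 to 32 reads per library. It had 23.0, 14.2 and 21.8 normalized counts in WT vehicle, 9.47, 12.1 and 7.64 in Pear1-/- vehicle, 3.67, 5.10 and 7.09 in WT bleo, and 28.4, 14.6 and 17.2 in Pear1-/- bleo. WT bleo was lowest and Pear1-/- bleo overlapped WT vehicle. Its log2 fold change was -1.86 in WT (SE 0.43, edgeR adjusted p = 0.00126) and, for Pear1-/- bleo minus WT bleo, 1.90 (SE 0.42, edgeR adjusted p = 0.00163), and the responses differed by 2.89 (95% confidence interval 1.66 to 4.12, edgeR adjusted p = 0.00111). Within Pear1-/- it was 1.03 (edgeR adjusted p = 0.0269), and that call was lost without Pear1-/- vehicle replicate 1 (adjusted p = 0.0823), without Pear1-/- vehicle replicate 3 (adjusted p = 0.0971) and without Pear1-/- bleo replicate 1 (adjusted p = 0.199).

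Tead1 had 106, 78.1 and 121 normalized counts in WT vehicle, 86.2, 89.1 and 85.1 in Pear1-/- vehicle, 90.0, 97.9 and 72.9 in WT bleo, and 127, 125 and 136 in Pear1-/- bleo. Pear1-/- bleo was above every other library, and the other groups overlapped. Tead1 was 1.50-fold higher in Pear1-/- bleo than in Pear1-/- vehicle (edgeR adjusted p = 0.00363) and 1.48-fold higher than in WT bleo (edgeR adjusted p = 0.00659). In WT it was not called (log2 fold change -0.21, 95% confidence interval -0.54 to 0.13), and the responses differed by 0.79 (SE 0.22, edgeR adjusted p = 0.0109). Tead2 had 27.9, 33.5 and 28.6 normalized counts in WT vehicle, 40.7, 33.4 and 41.5 in Pear1-/- vehicle, 21.1, 20.4 and 24.3 in WT bleo, and 35.5, 38.7 and 41.9 in Pear1-/- bleo. Here WT bleo was again the lowest group, without overlap. Tead2 was 1.74-fold higher in Pear1-/- bleo than in WT bleo (log2 fold change 0.80, SE 0.21, edgeR adjusted p = 0.00500). Neither the WT response of -0.44 (95% confidence interval -0.91 to 0.02) nor the difference between the responses of 0.46 (95% confidence interval -0.17 to 1.08) passed the test. Both were smaller in size without WT vehicle replicate 2, at -0.289 and 0.285, and did not pass there either.

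**Figure D3:**
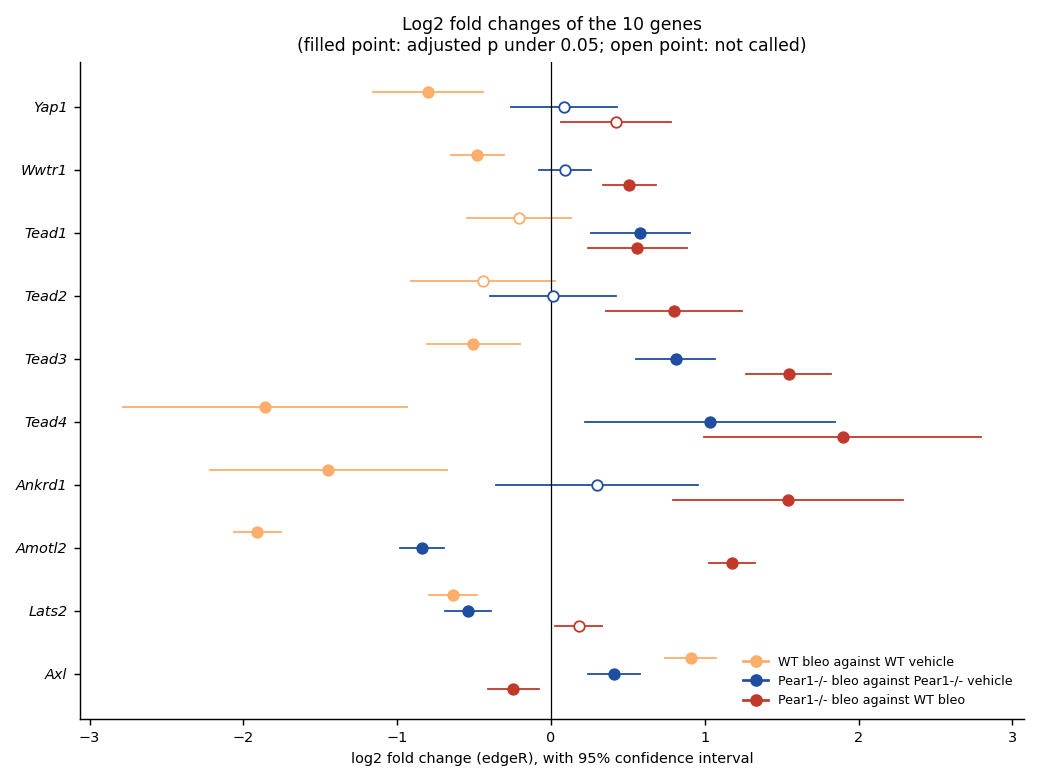
Log2 fold changes of the 10 genes in 3 comparisons, with 95% confidence intervals from edgeR's quasi-likelihood fit. Filled points passed an adjusted p under 0.05 and open points did not; in WT all points but that of Axl lie below 0, and between Pear1-/- bleo and WT bleo all points but that of Axl lie above 0.

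Ankrd1 encodes a nuclear ankyrin-repeat protein of muscle and stretched cells and is a classical target of YAP. It had 38.8, 25.4 and 53.8 normalized counts in WT vehicle, 34.1, 36.2 and 31.6 in Pear1-/- vehicle, 8.27, 22.4 and 12.1 in WT bleo, and 42.6, 50.7 and 31.5 in Pear1-/- bleo. All 3 WT bleo libraries were below all 9 others, which overlapped. Ankrd1 was 2.73-fold lower in WT bleo than in WT vehicle (log2 fold change -1.45, SE 0.36, edgeR adjusted p = 0.00226) and 2.91-fold higher in Pear1-/- bleo than in WT bleo (log2 fold change 1.54, SE 0.35, edgeR adjusted p = 0.00201). In Pear1-/- cells the difference between bleo and vehicle was 0.30 (95% confidence interval -0.36 to 0.95), and the responses differed by 1.75 (SE 0.48, edgeR adjusted p = 0.00941).

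Amotl2 encodes an angiomotin, a junction scaffold that binds YAP and is itself induced by it. It had 1235, 1233 and 1157 normalized counts in WT vehicle, 1268, 1326 and 1319 in Pear1-/- vehicle, 311, 334 and 312 in WT bleo, and 712, 768 and 701 in Pear1-/- bleo. Bleo libraries were below vehicle libraries in both genotypes, and WT bleo was lowest. Amotl2 was 3.75-fold lower in WT bleo than in WT vehicle (log2 fold change -1.91, SE 0.070, edgeR adjusted p = 4.51e-12) and 1.79-fold lower in Pear1-/- bleo than in Pear1-/- vehicle (log2 fold change -0.84, SE 0.066, edgeR adjusted p = 4.38e-08). Pear1-/- bleo exceeded WT bleo 2.26-fold (edgeR adjusted p = 4.34e-09), and the difference between the responses was 1.07 (SE 0.096, edgeR adjusted p = 9.40e-07).

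Lats2 encodes a kinase that phosphorylates YAP and TAZ and is among their targets. It had 994, 1155 and 999 normalized counts in WT vehicle, 1132, 1081 and 1133 in Pear1-/- vehicle, 674, 641 and 691 in WT bleo, and 759, 781 and 754 in Pear1-/- bleo. Bleo libraries were again below vehicle libraries in both genotypes. Lats2 was 1.56-fold lower in WT (log2 fold change -0.64, SE 0.072, edgeR adjusted p = 1.66e-06) and 1.45-fold lower in Pear1-/- (log2 fold change -0.54, SE 0.071, edgeR adjusted p = 1.10e-05). The responses differed by 0.10 (95% confidence interval -0.12 to 0.31, edgeR adjusted p = 0.471), which does not show that they were alike, and the 0.18 between Pear1-/- bleo and WT bleo did not pass (edgeR adjusted p = 0.0529). It did pass in 5 of 18 alternative settings. Another annotated gene, Gm49361, shares 2955 exon bases with Lats2 on the same strand, or 42.4% of the exon bases of Lats2, and reads on them cannot be told apart. For Yap1 and Tead2 an antisense gene shares 116 and 13 exon bases, and without a stated strand setting such reads cannot be told apart either.

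Axl, a receptor tyrosine kinase for Gas6 that takes part in the clearance of dying cells and is present on fibroblasts and macrophages, moved against the other targets. It had 3102, 3969.5 and 3275 normalized counts in WT vehicle, 4018, 4073 and 4280.2 in Pear1-/- vehicle, 6325, 6412 and 6519.8 in WT bleo, and 5499, 5501 and 5384 in Pear1-/- bleo. WT bleo was highest, followed by Pear1-/- bleo, without overlap between any of the groups. Axl was 1.88-fold higher in WT bleo than in WT vehicle (log2 fold change 0.91, SE 0.079, edgeR adjusted p = 8.62e-08) and 1.33-fold higher in Pear1-/- bleo than in Pear1-/- vehicle (log2 fold change 0.41, edgeR adjusted p = 0.00034). The responses differed by -0.50 (SE 0.11, edgeR adjusted p = 0.00262). The log2 fold change of -0.25 between Pear1-/- bleo and WT bleo passed (edgeR adjusted p = 0.0175), but not without the filter on low counts (adjusted p = 0.0783), nor without any 1 of the 6 bleo libraries (adjusted p between 0.0769 and 0.113).

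Between the vehicle groups, edgeR called 0 of the 10 genes, limma on the log2 scale called 0 and DESeq2 called 1, Axl (higher). Of all genes, limma called 2.9% higher and 3.41% lower, and DESeq2 called 2.57% higher and 5.98% lower. Without the filter on low counts edgeR also called Axl alone, beside 5.66% of all genes higher and 8.17% lower. At an unadjusted p under 0.05 there were 3 genes, Yap1 (log2 fold change -0.46, edgeR adjusted p = 0.0789), Tead4 (-0.99, edgeR adjusted p = 0.102) and Axl (0.25, edgeR adjusted p = 0.0630). The groups did not overlap in 3 of the 10 genes (Tead4, Amotl2 and Axl), beside 19.2% of all genes. These values turned on WT vehicle replicate 2, whose Yap1 count of 138 lay among those of the Pear1-/- vehicle libraries and whose Axl count of 3969.5 was near them. Without that library 5 genes were called, with Amotl2 (0.19), Lats2 (0.23) and Axl (0.44) higher and Yap1 (-0.59) and Tead4 (-1.11) lower in Pear1-/- vehicle on the log2 scale, beside 25.5% of all genes higher and 29.7% lower. Leaving it out did not change which genes were called in WT, in Pear1-/- or in the difference between the responses, and added Yap1 and Lats2 to those higher in Pear1-/- bleo than in WT bleo.

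**Figure D4:**
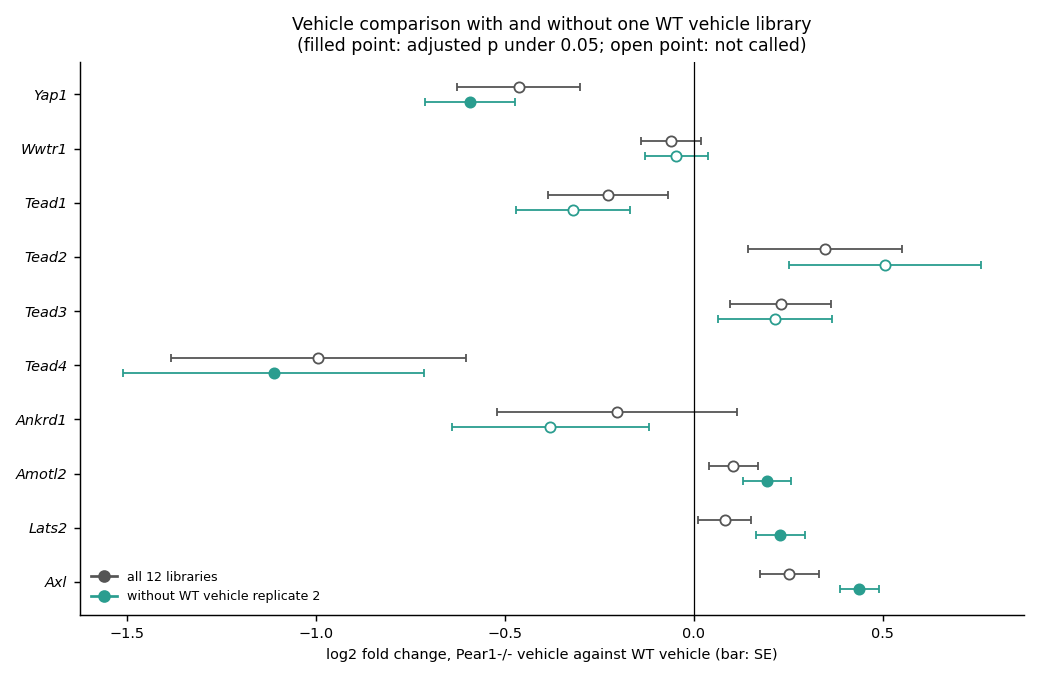
Log2 fold changes of the 10 genes between Pear1-/- vehicle and WT vehicle, with SE, from all 12 libraries (grey) and without WT vehicle replicate 2 (green). Filled points passed an adjusted p under 0.05; 0 of 10 passed with all libraries and 5 of 10 without that one.

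Levels were also compared between genes as CPM (counts scaled to the library total) per kilobase of exon. Axl was the most abundant of the 10 genes in every group by this measure, with means of 80.6 and 87.6 in the WT and Pear1-/- vehicle groups and of 143 and 121 in the WT and Pear1-/- bleo groups (n = 3). Tead4 was the least abundant in every group, between 0.165 in WT bleo and 0.655 in WT vehicle, although its range overlapped that of Tead2 in WT vehicle and in Pear1-/- bleo. Wwtr1 exceeded Yap1 in every group, with 10.7 against 2.52 in WT vehicle and 10.2 against 1.80 in Pear1-/- bleo on this scale. Amotl2 was second in WT vehicle (22.7), ahead of Lats2 (17.8), but stood in WT bleo (5.70) behind Lats2 (10.8) and Wwtr1 (7.16). In Pear1-/- bleo the ranges of Amotl2 and Lats2 overlapped. Of the TEAD genes, Tead3 had the highest level per length in every group, with 3.14 in Pear1-/- bleo and 1.07 in WT bleo.

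Other genes of the pathway were read from 4 lists, and their bleo responses in each genotype are plotted beside each other. Of 18 further genes widely used as YAP/TAZ targets, 4 were higher and 9 lower in WT bleo than in WT vehicle, beside 31.4% and 36.6% of all genes. In Pear1-/- bleo 6 were higher and 6 lower than in Pear1-/- vehicle, beside 28.9% and 33.4% of all genes. Pear1-/- bleo exceeded WT bleo in 11 of the 18 and was below it in 2, beside 22.1% and 23.9% of all genes. Without WT vehicle replicate 2 it exceeded WT bleo in 11 and was below it in 4, beside 23.3% and 25.9%. The list's median log2 fold change between the bleo groups, with all 12 libraries fitted, was 0.44, and that of all genes was -0.01. Cyr61 (Ccn1) and Ctgf (Ccn2), which encode secreted matricellular proteins, are the most used of these targets. Cyr61 had 45094, 33753 and 44166 normalized counts in WT vehicle, 32809, 31986 and 33349 in Pear1-/- vehicle, 11699, 11461 and 11662 in WT bleo, and 17999, 18905 and 18527 in Pear1-/- bleo. Ctgf had 869.5, 788 and 917 normalized counts in WT vehicle, 854, 904 and 889 in Pear1-/- vehicle, 434, 455 and 459.6 in WT bleo, and 894, 854 and 812 in Pear1-/- bleo. WT bleo was lowest for both, and Pear1-/- bleo lay within the range of the vehicle libraries for Ctgf but below it for Cyr61. Cyr61 fell in both genotypes, by 1.81 on the log2 scale in WT (edgeR adjusted p = 7.51e-11) and by 0.82 in Pear1-/- (edgeR adjusted p = 7.14e-07). Ctgf fell by 0.92 in WT (edgeR adjusted p = 4.46e-08) and differed by -0.04 in Pear1-/- (95% confidence interval -0.20 to 0.11).

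Igfbp3, which encodes a binding protein of insulin-like growth factors, fell by 2.80 (WT) and by 1.40 (Pear1-/-) on the log2 scale, with 429 to 498 normalized counts in WT bleo and 1435 to 1469 in Pear1-/- bleo. F3, tissue factor, fell by 2.12 and by 1.30. Tgfb2, a TGF-beta ligand, fell by 0.96 in WT (158, 137 and 158 counts in WT bleo) and was 1.11 higher on the log2 scale in Pear1-/- bleo than in WT bleo (337, 337 and 315 counts). Arhgef17, a guanine nucleotide exchange factor, fell by 1.18 in WT and was 0.85 higher in Pear1-/- bleo than in WT bleo. Nt5e, the ectonucleotidase CD73, was the reverse in direction, since it rose by 0.63 in WT and by 1.91 in Pear1-/- on the log2 scale, to 220 to 227 counts and 649 to 678 counts. The WT value ranged from 0.44 to 1.02 over the alternatives. WT vehicle replicate 2 had 201 normalized counts of Nt5e, and replicates 1 and 3 had 127 and 104. Ptpn14, a phosphatase that holds YAP in the cytoplasm, fell by 1.11 in WT and by 1.20 in Pear1-/-, and its responses differed by -0.09 (edgeR adjusted p = 0.748). Nuak2, a kinase, was the 1 gene of the list whose response was lower in Pear1-/- (-0.86, edgeR adjusted p = 5.70e-05), beside 11 whose response was higher. Fjx1, which encodes a secreted regulator of the Dachsous and Fat cadherins, had at most 3 reads in any vehicle library and 7.14 to 20.2 normalized counts in the bleo libraries, and no fold is given for it. Ptpn14, Nuak2, Dock5 and Myof were named after their values were seen. In the vehicle comparison 3 of the 18 were lower in Pear1-/- (Cyr61, Dock5 and Myof) and 0 were higher, beside 3.65% and 0.855% of all genes, and without WT vehicle replicate 2 there were 5 higher and 6 lower, beside 25.5% and 29.7% of all genes. The vehicle call of Cyr61 (edgeR adjusted p = 0.0426) was lost in alternatives, with an adjusted p of up to 0.238.

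**Figure D5:**
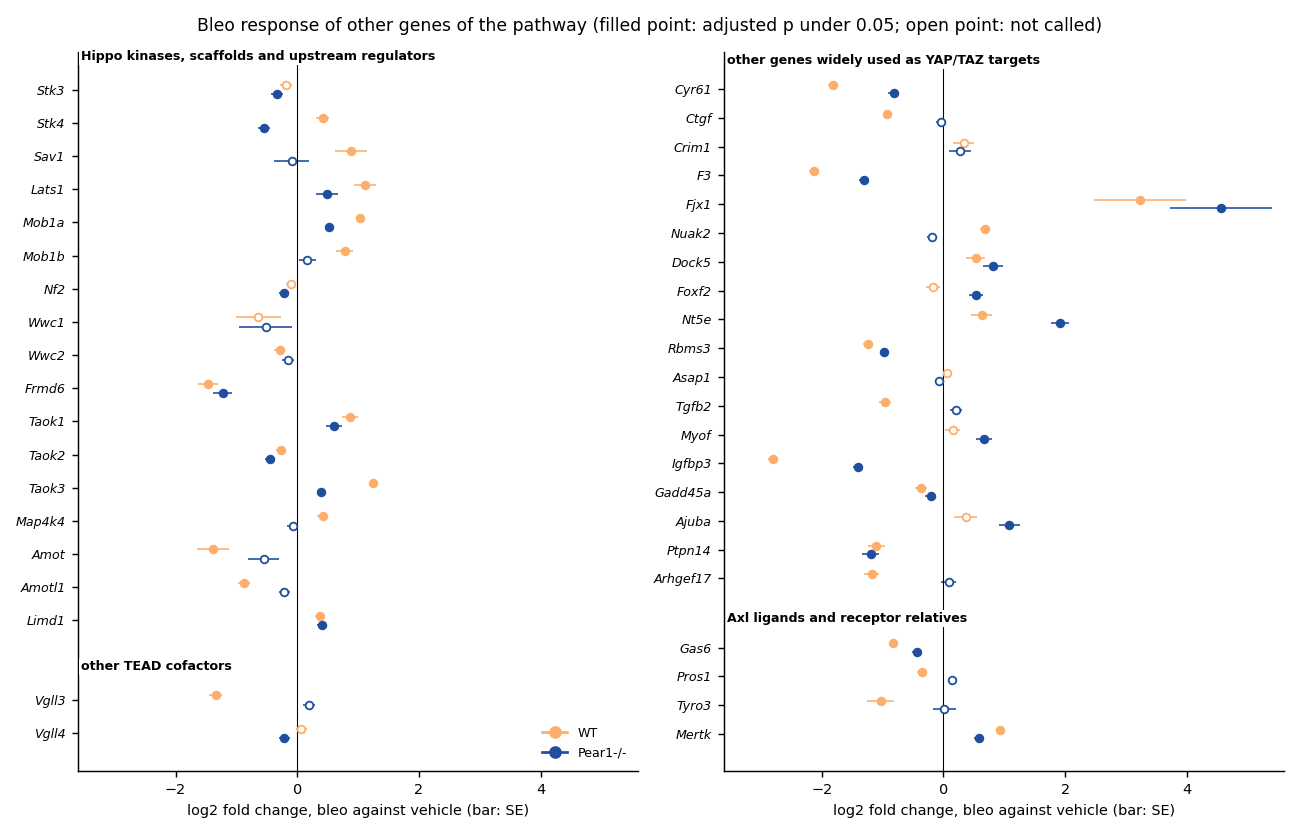
Log2 fold changes between bleo and vehicle, with SE, in WT (orange) and in Pear1-/- (blue) for 41 further genes of the pathway in 4 lists. Filled points passed an adjusted p under 0.05; Igfbp3 shows the largest fall in WT among the genes drawn, and the values of Fjx1 depend on the fit's prior count because its vehicle libraries held at most 3 reads.

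Upstream of YAP and TAZ, 17 Hippo kinases, scaffolds and regulators were tested, of which 9 were higher and 5 lower in WT bleo than in WT vehicle, beside 31.4% and 36.6% of all genes. In Pear1-/- bleo 5 were higher and 5 lower than in Pear1-/- vehicle, beside 28.9% and 33.4%. Pear1-/- bleo was below WT bleo in 8 of the 17 and above it in 2, Frmd6 and Amotl1, beside 23.9% and 22.1%. The core kinase Lats1, which phosphorylates YAP like Lats2, had 65.5, 121 and 65.3 normalized counts in WT vehicle and 191, 188 and 166 in WT bleo. It rose by 1.11 on the log2 scale in WT (edgeR adjusted p = 8.07e-05), where Lats2 fell. The difference of 0.49 in Pear1-/- passed (edgeR adjusted p = 0.0307) but was lost in alternatives, with an adjusted p of up to 0.143. Taok3, a kinase that acts on the Hippo kinases, rose by 1.25 in WT and by 0.40 in Pear1-/-, and its responses differed by -0.85 (edgeR adjusted p = 5.30e-06). Mob1a, the cofactor of the LATS kinases, rose by 1.03 in WT, to 2798 to 2896 normalized counts. Sav1, the scaffold of the kinase core, rose by 0.88 in WT and was 1.38 lower on the log2 scale in Pear1-/- bleo than in WT bleo, with 12.9 to 20.0 against 32.6 to 49.6 normalized counts. Among the scaffolds, Amot, a relative of Amotl2, fell by 1.38 in WT (edgeR adjusted p = 0.000280), and Frmd6, a FERM-domain protein, fell by 1.47 in WT and by 1.23 in Pear1-/-. Stk4, which encodes the kinase MST1, rose by 0.42 in WT and fell by 0.55 in Pear1-/-, and was named after its values were seen, as were Mob1a, Amotl1, Vgll4, Gas6, Pros1 and Mertk. Between the vehicle groups 0 of the 17 genes passed, beside 0.855% of all genes higher and 3.65% lower, and without WT vehicle replicate 2 there were 6 higher and 3 lower, beside 25.5% and 29.7% of all genes.

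Of the vestigial-like cofactors, which compete with YAP and TAZ for TEAD factors, 2 of 4 passed the filter on low counts. Vgll3 had 591, 431 and 527 normalized counts in WT vehicle, 428, 405 and 399 in Pear1-/- vehicle, 210.3, 201 and 193 in WT bleo, and 478, 444 and 485 in Pear1-/- bleo. Its WT bleo libraries were the lowest of all 12, as they were for Wwtr1. Vgll3 fell by 1.34 in WT (edgeR adjusted p = 2.24e-08) and was 1.20 higher in Pear1-/- bleo than in WT bleo on the log2 scale (edgeR adjusted p = 1.95e-07). Vgll4 was not called in WT (log2 fold change 0.07) and was -0.21 in Pear1-/- (edgeR adjusted p = 0.0439). Of the ligands and relatives of Axl, the ligands Gas6 and Pros1 and the receptor Tyro3 were lower in WT bleo than in WT vehicle, and the receptor Mertk was higher. Tyro3 had 25.7, 19.4 and 20.2 normalized counts in WT bleo and 45.3, 43.8 and 50.5 in Pear1-/- bleo, a log2 fold change of 1.07 (edgeR adjusted p = 0.000643). Mertk resembled Axl in direction, at 0.93 in WT (edgeR adjusted p = 1.31e-08), 0.58 in Pear1-/- (edgeR adjusted p = 3.76e-06) and, for Pear1-/- bleo minus WT bleo, -0.52 (edgeR adjusted p = 1.18e-05). Gas6 was -0.83, -0.44 and 0.34 in the same 3 comparisons.

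Markers of other cells moved with the groups. The summed level of 12 leukocyte markers was 2873 to 3323 CPM in WT vehicle, 3240.1 to 3413 in Pear1-/- vehicle, 14229 to 14400 in WT bleo and 6458 to 6637 in Pear1-/- bleo. In WT bleo 9 of the 12 exceeded WT vehicle and 2 were below it, beside 31.4% and 36.6% of all genes, and 11 were lower in Pear1-/- bleo than in WT bleo, beside 23.9%. The sum of 11 fibroblast markers was 18743 to 20180 in WT vehicle, 18455 to 18787 in Pear1-/- vehicle, 12760 to 12885 in WT bleo and 32745 to 33520 in Pear1-/- bleo, and 6 of the 11 were higher in Pear1-/- bleo than in WT bleo and 1 was lower, beside 22.1% and 23.9% of all genes. Against WT vehicle, 2 of the 11 were higher and 9 lower in WT bleo, beside 31.4% and 36.6% of all genes. Against Pear1-/- vehicle, 3 were higher and 7 lower in Pear1-/- bleo, beside 28.9% and 33.4%. The fibroblast sum thus rose with bleo in Pear1-/- while most of its markers fell. The sum of 8 epithelial markers was 4892 to 6185 in WT vehicle and 1616 to 1638 in WT bleo, and 713 to 730.0 in Pear1-/- bleo. In Pear1-/- vehicle the epithelial sum was 5854 to 6583. Sums of 8 endothelial markers were 478 to 496 in WT vehicle and 469.5 to 502 in Pear1-/- vehicle, and lower in the bleo groups, which overlapped (264 to 276 in WT and 257 to 280 in Pear1-/-). Sums of 7 smooth muscle and pericyte markers were 187 to 188 in WT bleo and 486 to 509.7 in Pear1-/- bleo, beside 291 to 336 and 289 to 313 in the WT and Pear1-/- vehicle groups. These 7 markers were split, with 3 higher and 2 lower in Pear1-/- bleo than in WT bleo, beside 22.1% and 23.9% of all genes. Bleo against vehicle gave 2 higher and 3 lower in WT, beside 31.4% and 36.6% of all genes. In Pear1-/- it gave 2 higher and 4 lower, beside 28.9% and 33.4%. Sums of 4 mesothelial markers were 8.02 to 9.59 and 13.0 to 15.3 in the bleo groups, beside 27.1 to 37.1 and 24.6 to 27.2 in the vehicle groups. No marker was at 0 in any group. The leukocyte sum was highest in WT bleo, where Yap1, Wwtr1, Tead2, Tead3, Tead4, Ankrd1, Amotl2 and Lats2 had their lowest mean and Axl and Mertk were highest, and its part in these results was not tested. The same holds for the fibroblast and the smooth muscle and pericyte sums, which were lowest in WT bleo and highest in Pear1-/- bleo.

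Genes with the most similar pattern were named by the root mean square difference of centred log2 values over the 12 libraries. For Yap1 they were Ngef (0.085), Evi5l and Ptprd (both 0.106), Vps8 (0.114) and 2210408I21Rik (0.126). For Wwtr1 they were Fam20a and Vat1 (both 0.058), Zyx (0.064), and Nedd9 and Lrsam1 (both 0.068). For Ankrd1, whose counts were lower and varied more, they were 4930430F08Rik (0.307), Fhdc1 (0.321), Ppp1r13l (0.322), Rassf6 (0.328) and Hoxb2 (0.332). Of the 10 genes themselves, Wwtr1 and Tead2 were closest to each other (0.216), followed by Yap1 and Wwtr1 (0.238). These differences are descriptions, and all points come from the same 12 libraries in 4 groups.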

How the data were processed

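Pdgfra+ lung cells of 4 groups were measured by bulk RNA-seq, with cDNA made by the SMART-Seq v4 kit. The authors deposited raw counts of reads per gene and a table of normalized values, after alignment to GRCm38 with HISAT2. The program and strand setting of the counting are not given in the sources used here. The deposited normalized values (a signal scaled per library) equal the counts divided by 1 size factor per library, which matched DESeq2's median-of-ratios factor. The 12 libraries held 6702948 to 10447101 counts, and a floor of 3 counts equalled 0.287 to 0.448 CPM, covering counting error only.

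Counts were tested with edgeR 4.0.16 in R 4.3.3 (TMM, filterByExpr, quasi-likelihood test, 1 mean per group over all 12 libraries, two-sided, Benjamini-Hochberg over 17418 genes). Confidence intervals are 95% and use the fit's standard errors. The 10 genes and all lists were chosen with earlier results of these data known. A gene outside them was named if it was Ccn1 or Ccn2, or among the 4 largest changes of a list and comparison past an adjusted p of 0.05, with fold above 2 and groups not overlapping, and otherwise only where the text says so. Alternatives were RLE factors, DESeq2 1.42.0, limma 3.58.1 on log2 of the normalized value plus 1, no filter on low counts, only the groups compared, a replicate block, each library left out, and fold above 2 as well. The script was tested on simulated data. Lengths and exons came from GENCODE M21 and promoters from RefSeq. For symbols on several rows, the row with the larger total was used.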

Additional observations from a re-analysis of the deposited data

Results flagged for a closer look

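The bleo response differed between the genotypes, by edgeR's test of the difference itself (adjusted p under 0.05 over all genes), in 8 of the 10 YAP/TAZ-TEAD genes. The values are the Pear1-/- response minus the WT response on the log2 scale, with 3 libraries a group. Yap1 gave 0.89, Wwtr1 0.57, Tead1 0.79, Tead3 1.32, Tead4 2.89, Ankrd1 1.75 and Amotl2 1.07. Axl was the one with a negative value, -0.50. These 8 calls were kept in the 17 alternative settings that used the same threshold. With a fold above 2 required as well, 4 remained (Tead3, Tead4, Ankrd1 and Amotl2).

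Among the further genes named, the Hippo kinase Taok3 gave -0.85 and the TEAD cofactor Vgll3 gave 1.53. Stk4 (-0.96) and Nuak2 (-0.86), named after their values were seen, were also negative, and of the 17 Hippo genes 5 had a lower and 1 a higher response in Pear1-/- (8 and 2 without WT vehicle replicate 2, when 26% of all genes were lower and 20.4% higher). Of the other targets, Cyr61 gave 0.99, Ctgf 0.88, F3 0.82, Nt5e 1.29, Tgfb2 1.16, Igfbp3 1.40 and Arhgef17 1.27. The Axl relative Tyro3 gave 1.04. In Nt5e both genotypes rose and in Cyr61, F3 and Igfbp3 both fell, so that the differences there are of size and not of direction. Of all genes, 17.9% had a higher and 19.1% a lower response in Pear1-/-.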

How the results depend on the processing

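Of 890 alternative values of the 10 genes over 5 comparisons, 844 kept their direction and side of the threshold, 11 lost a call, 21 gained one and 14 changed sign. With a fold above 2 required as well, 3 genes were lower and 0 higher in WT bleo, 1 was higher (Tead4) and 0 lower in Pear1-/- bleo, 4 were higher and 0 lower in Pear1-/- bleo against WT bleo, and 4 were higher and 0 lower in the difference between the responses, as the stricter rule leaves fewer genes. The single lower call in Pear1-/- bleo against WT bleo (Axl) became 0 without the filter on low counts, and ranged from 0 to 1 when libraries were left out. In the vehicle comparison DESeq2 gave 1 higher gene and no filter gave 1, beside 2.57% and 5.66% of all genes. Leaving out libraries gave 0 to 3 higher and 0 to 2 lower. The highest counts came without WT vehicle replicate 2, when 25.5% of all genes were higher and 29.7% lower.

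Values that changed sign were near 0 and not called. Yap1 in Pear1-/- ranged from -0.024 to 0.13 with libraries left out, below 0 without Pear1-/- vehicle replicate 3. Wwtr1 between the vehicle groups was 0.038 without the filter and ranged from -0.076 to 0.052, above 0 without Pear1-/- vehicle replicate 2. Tead2 in Pear1-/- was -0.0023 with RLE factors and -0.0022 with DESeq2, and ranged from -0.10 to 0.054. Ankrd1 between the vehicle groups ranged from -0.38 to 0.098, above 0 without WT vehicle replicate 3, and the Lats2 difference between the responses from -0.058 to 0.13, below 0 without WT vehicle replicate 2. Causes were not tested. Another scaling moved the median of all genes by at most 0.030 on the log2 scale.

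With the replicate number as a block, the counts of called genes were 7 lower and 1 higher in WT bleo, 4 higher and 2 lower in Pear1-/- bleo, 7 higher and 1 lower in Pear1-/- bleo against WT bleo, and 0 between the vehicle groups, which are the calls made without it. Deviations of same-numbered libraries correlated between -0.142 and 0.103, over 0.1 in 1 of 18 pairs, and those of other pairs between -0.144 and 0.142. These values give no sign that the numbers pair the libraries, but with 3 libraries a group they cannot exclude it. Tead4, with 4 to 32 reads a library, is the gene most limited by depth.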
